A study of Mus musculus with 2 samples.

Results

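The levels of 10 genes of the tumor necrosis factor (TNF) superfamily and its receptors were measured in γδ T cells of the mouse liver and thymus. They were found by their symbols in the gene lists of the count tables, 10 of the 27998 genes listed, and each had at least 1 UMI in either tissue. The ligand genes were Tnf, Cd40lg, Tnfsf11, Tnfsf10 and Fasl, and the receptor genes were Cd27, Tnfrsf9, Tnfrsf4, Tnfrsf18 and Tnfrsf1b. The cells came from wild type, untreated C57BL/6J mice that were 8 weeks old, and 1 single-cell library was made from hepatic and 1 from thymic γδ T cells sorted for CD3e and the γδ T cell receptor. The thymic suspension alone had first been depleted of CD4- and CD8-bearing cells with magnetic beads. Cells of several mice entered the experiment, and how they were divided between the libraries is not given in the sources used here, so the spread between animals could not be measured and no test between the tissues was run.

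Ligands of the TNF superfamily are trimeric proteins, most of them anchored in the membrane, and they act on neighbouring cells that carry the matching receptor. Receptors such as CD27, 4-1BB, OX40, GITR and TNFR2 bind TRAF adaptor proteins and turn on NF-κB, which gives a T cell a costimulatory signal for survival and division, whereas the receptors of FAS ligand and TRAIL can start caspase-driven cell death. In the thymus, RANK ligand on developing lymphocytes acts on medullary epithelial cells. In γδ T cells, CD27 is the marker by which cells that make IFN-γ are separated from those that make IL-17.

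Levels are given as CPM: the unique molecular identifiers (UMIs, tagged transcripts) of a gene were added up across the cells that a class had in 1 tissue, divided by the total UMIs of those cells and multiplied by 1000000. The brackets after a level hold its exact Poisson 95% interval, and those after a share of cells its exact binomial 95% interval. These intervals cover counting error only. Cells with 800 to 4000 genes and at most 6% mitochondrial UMIs were kept, which left 8075 of 8658 hepatic barcodes (median 2741 UMIs) and 4351 of 4541 thymic barcodes (median 3271 UMIs). The libraries shared 60 barcodes, 56 of them among the cells kept. Both libraries were clustered together, with the 10 genes and 58 further genes of the family and its signalling left out of the variable genes, and clusters were named from marker genes of the study's clusters.

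Of the 4351 thymic cells, 2432 were C1-like, with the markers of immature γδ thymocytes (Cd24a, Hes1, Ccr9 and Sox4 among them). They formed 2 clusters, one of 1476 cells led by Tnfsf11 and one of 956 cells led by Tox2. A cluster led by S1pr1 and Cd200 held 1023 thymic and 80 hepatic cells. It scored highest for the markers of the transitional thymic stage, but 3 hemoglobin genes stood among its 10 leading genes and the summed level of 4 hemoglobin genes was 301 CPM in its thymic cells, against 31.5 to 48.1 CPM in the other 4 thymic classes, so it was given no class name. In its hepatic cells the same sum was 4.70 CPM, against 19.0 to 44.1 CPM in the other hepatic classes. C3-like cells (Ly6c2, Dapl1) numbered 180 in the thymus and 1069 in the liver, and C6-like cells (Il17a and Tmem176b among their markers) 166 and 793. The C4-like (2823 cells, led by Socs2), C5-like (2794, led by Ccl4), C7-like (279, led by Klra7) and C8-like (105, led by Lyz2) cells and 72 cells of an interferon-response cluster were hepatic. Cycling cells numbered 537 in the thymus and 55 in the liver, with median depths of 7066 and 6087 UMIs. The CD3 genes, which define T cells, summed to between 2330 and 4897 CPM in every class except the C8-like cells, where they reached 846 CPM beside 19898 CPM of a list of 7 myeloid genes.

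The sequences before the start sites are shown for 4 of the genes: Tnfsf11, which led a thymic cluster, Tnfrsf9, which held the NF-κB motif, and the neighbouring genes Tnfrsf18 and Tnfrsf4. They are the 250 bases before the RefSeq start, read 5′ to 3′ in the direction of the gene, from RefSeq windows on GRCm38.p6, which matched 9 of the 10 genes (Cd40lg had no entry). Tnfrsf9 has 2 start sites in the table, and the downstream one is shown. Capitals mark a match on either strand to 1 of 5 motifs: the NF-κB motif (GGG and TTTCC with any 2 bases between), the TATA box TATAAA, the T-box motif AGGTGTGA, the RUNX motif TGTGGT and the TCF/LEF motif CTTTGAA.
Tnfsf11 (chr14:78308044-78308293, minus strand): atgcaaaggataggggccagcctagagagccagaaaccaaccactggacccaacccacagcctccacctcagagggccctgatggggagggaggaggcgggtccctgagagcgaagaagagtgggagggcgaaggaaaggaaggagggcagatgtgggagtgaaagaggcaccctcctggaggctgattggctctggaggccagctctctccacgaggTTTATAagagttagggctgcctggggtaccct
Tnfrsf9 (chr4:150927749-150927998, plus strand): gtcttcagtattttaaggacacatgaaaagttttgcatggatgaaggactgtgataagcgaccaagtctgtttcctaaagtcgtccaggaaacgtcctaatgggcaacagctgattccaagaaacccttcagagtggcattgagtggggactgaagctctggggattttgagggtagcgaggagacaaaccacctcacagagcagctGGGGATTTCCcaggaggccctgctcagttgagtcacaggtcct
Tnfrsf18 (chr4:156026072-156026321, plus strand): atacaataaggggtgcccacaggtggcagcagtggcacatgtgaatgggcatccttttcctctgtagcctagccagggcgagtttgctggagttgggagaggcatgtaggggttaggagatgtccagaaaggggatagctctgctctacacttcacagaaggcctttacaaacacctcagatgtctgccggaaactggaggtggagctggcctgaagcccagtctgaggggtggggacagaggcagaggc
Tnfrsf4 (chr4:156013445-156013694, plus strand): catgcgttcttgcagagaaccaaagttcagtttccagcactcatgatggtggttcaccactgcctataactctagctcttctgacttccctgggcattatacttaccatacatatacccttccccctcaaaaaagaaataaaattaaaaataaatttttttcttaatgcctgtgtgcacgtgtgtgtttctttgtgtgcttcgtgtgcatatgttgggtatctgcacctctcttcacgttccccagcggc
Among the 10 windows of these genes, the NF-κB motif was found in the downstream Tnfrsf9 window alone, 43 to 34 bases before the start, against 1.41% of all 32817 windows. The TATA box was found in the Tnf window and, on the opposite strand, 32 to 27 bases before the start of Tnfsf11, against 12.4% of all windows. The T-box, RUNX and TCF/LEF motifs were in none of the 10 windows and in 1.12%, 14.0% and 4.46% of all windows. These are matches of letters within 250 bases and no measure of binding. The starts of Tnfrsf4 and Tnfrsf18 lie 12627 bases apart on the same strand of chromosome 4, and their levels are set side by side below.

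Of the ligand genes, Tnfsf11 alone was higher in the thymic library, and the other 4 were higher in the hepatic one. Over all cells, 5 of the 10 genes were more than 2-fold higher in the hepatic library (Tnf, Cd40lg, Tnfsf10, Fasl and Tnfrsf18), where 12.3% of the 10758 genes with at least 50 UMIs passed that limit. Tnfsf11, Cd27 and Tnfrsf4 were more than 2-fold higher in the thymic library, where 17.0% of genes passed it, and Tnfrsf9 and Tnfrsf1b lay within 2-fold. The widest gaps were those of Fasl, with 95.8 CPM in the liver and 2.99 CPM in the thymus, and Tnfsf11, with 9.52 and 279 CPM. The median of all genes was 0.21 lower in the liver on the log2 scale. Because the tissues hold different classes of cells, the levels are given by class from here on.

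**Figure D1:**
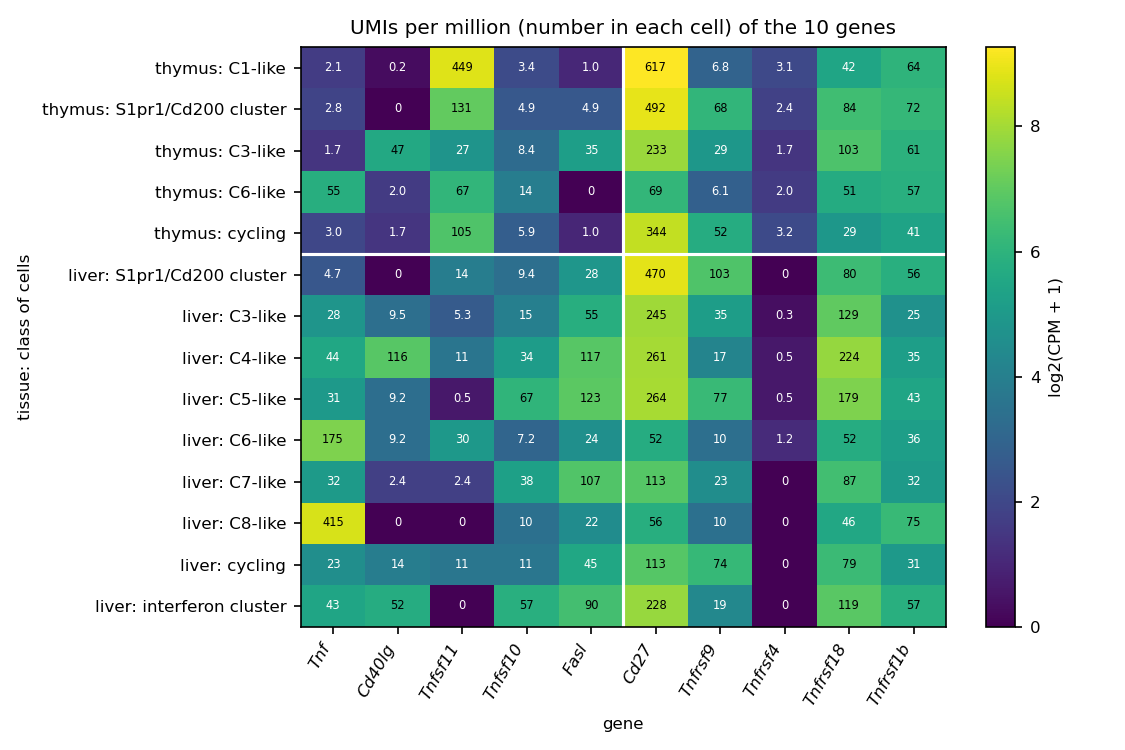
Levels of the 10 genes in the 5 thymic and 9 hepatic classes with at least 20 cells, ligands to the left of the white vertical line and receptors to the right. Each number is a level in CPM and the colour its log2(CPM + 1). Tnfsf11 stands out in the thymic C1-like cells (449), Cd40lg in the hepatic C4-like cells (116) and Tnf in the hepatic C8-like (415) and C6-like (175) cells, while Tnfrsf4 stays below 4 in every class.

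Cd40lg encodes the CD40 ligand, through which T cells act on B cells, dendritic cells and macrophages. In the liver it was concentrated in the C4-like cells, at 116 CPM (109 to 124). They made up 35.0% of the hepatic cells and held 86.4% of the hepatic Cd40lg UMIs, 937 of 1085. The other large hepatic classes were alike and low, with 9.47 CPM (6.56 to 13.2) in C3-like, 9.19 CPM (7.20 to 11.6) in C5-like and 9.18 CPM (5.82 to 13.8) in C6-like cells. C7-like cells had 2.38 CPM (0.288 to 8.59), and the C8-like cells and the hepatic cells of the S1pr1/Cd200 cluster had no Cd40lg UMI. The next highest hepatic level was that of the interferon-response cluster, 52.4 CPM (26.1 to 93.7) from 11 UMIs, which the C4-like cells exceeded 2.22-fold (1.23 to 4.46). C4-like cells also held 24 of the 32 hepatic UMIs of Cd4, a coreceptor of αβ T cells, at 2.97 CPM, beside 103 CPM of Cd8a and 4.58 CPM of Cd8b1. The part of such cells in the Cd40lg level was not tested.

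Against the C5-like cells, C4-like cells had 12.6-fold more Cd40lg (9.95 to 16.3). In the same comparison 9 of the 10 genes had at least 50 UMIs, and 2 of them, Cd40lg and Tnfsf11, were more than 2-fold higher in the C4-like cells, where 2.76% of all genes tested passed that limit. One, Tnfrsf9, was more than 2-fold lower, where 2.53% passed it. Cd40lg stood among the 10 leading genes of the C4-like cluster although it took no part in the clustering. The level is therefore a description of that cluster, whose other genes were used to form it.

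The transcript was found in a minority of C4-like cells. After each cell had been thinned to 1500 UMIs, 15.3% of 2823 C4-like cells held a Cd40lg UMI (14.0% to 16.7%), compared with 1.11% of C5-like cells (0.755% to 1.57%), at median depths of 2700 and 2701 UMIs. Without thinning the share was 24.5%. The C8-like cells, which held 846 CPM of the CD3 genes, gave 0 of 105 cells at a median of 3069 UMIs. This allows a share of up to 2.86%, taking 3 cells as the limit for a count of 0. That limit is above the share of C5-like cells and so gives no background for it. Of the C4-like cells with the transcript, 502 had 1 UMI, 146 had 2, and the highest count in a cell was 4.

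In the thymus Cd40lg was highest in C3-like cells, at 47.2 CPM (31.4 to 68.2). These 180 cells, 4.14% of the thymic cells, held 28 of the 40 thymic UMIs. Cycling cells held 7, or 1.72 CPM (0.692 to 3.55). C1-like cells had 2 UMIs in 2432 cells, or 0.233 CPM (0.0282 to 0.841), and the thymic S1pr1/Cd200 cluster had none in 1023 cells. C3-like cells of the thymus had no Cd4 UMI, and Cd8a and Cd8b1, also listed as markers of αβ T cells, had 10.1 and 20.2 CPM in them. C1-like cells had 1.98 CPM of each. The thymic S1pr1/Cd200 cluster had 7.65 CPM of Cd8a, 27.9 CPM of Cd8b1 and 4 UMIs of Cd4. The part of αβ T cells in the Cd40lg level of thymic C3-like cells was not tested. Thymic C3-like cells were above hepatic C3-like cells and below hepatic C4-like cells, and they lay next to the interferon-response cluster in the order of levels, from which their interval did not separate them.

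**Figure D2:**
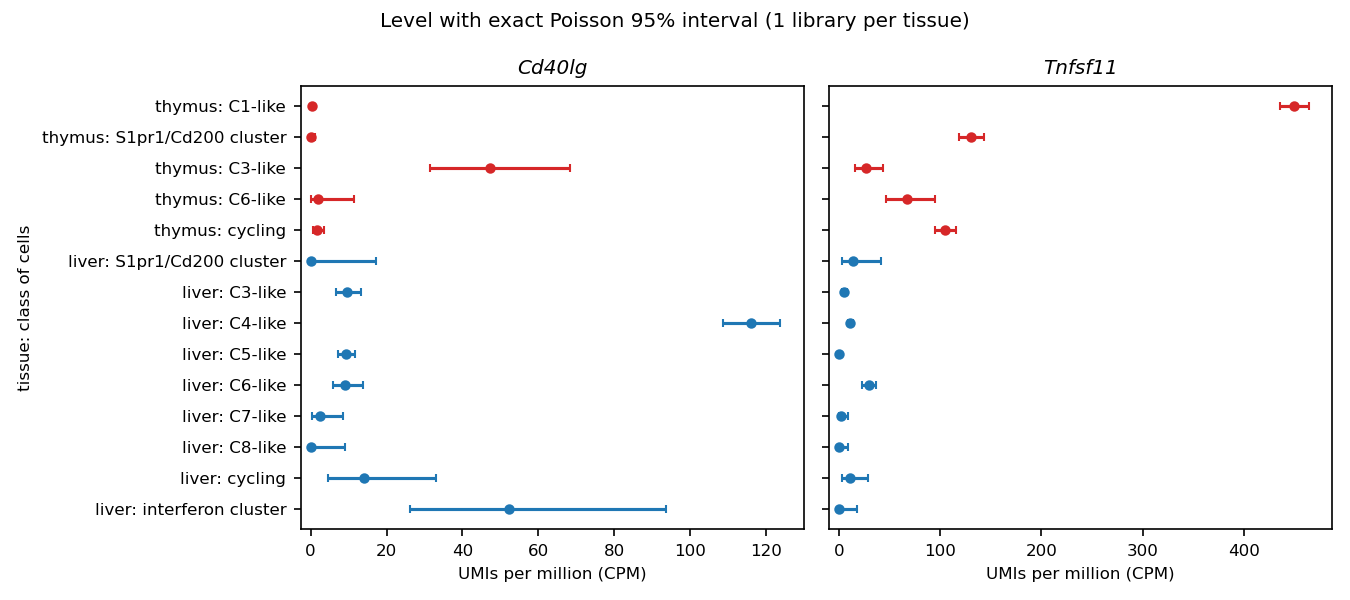
Levels of Cd40lg (left) and Tnfsf11 (right) in CPM in each class, thymus in red and liver in blue, with exact Poisson 95% intervals as bars. Cd40lg is high in hepatic C4-like cells and, in the thymus, in C3-like cells, and Tnfsf11 falls from 449 in thymic C1-like cells to at most 29.5 in any hepatic class.

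Tnfsf11 encodes RANK ligand, the partner of RANK on osteoclast precursors, dendritic cells and thymic epithelium. It was highest in the immature thymic cells. C1-like cells had 449 CPM (435 to 464), the S1pr1/Cd200 cluster 131 CPM (119 to 144), cycling thymic cells 105 CPM (95.1 to 115), C6-like thymic cells 67.4 CPM (46.4 to 94.7) and C3-like thymic cells 27.0 CPM (15.4 to 43.8). Each of the first 4 exceeded the next beyond counting error, by 3.44-fold (3.11 to 3.81), 1.25-fold (1.09 to 1.43), 1.55-fold (1.09 to 2.29) and 2.50-fold (1.34 to 4.86). C1-like cells held 81.0% of the 4764 thymic Tnfsf11 UMIs.

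The 2 immature clusters differed in it. The Tnfsf11-led cells had 611 CPM (588 to 636) and the Tox2-led cells, which also carried Cpa3 and Dntt, 295 CPM (280 to 312), a 2.07-fold difference (1.94 to 2.22). Of 5 genes with at least 50 UMIs it was the only one more than 2-fold higher in the Tnfsf11-led cells, where 3.17% of all genes passed, and Tnfrsf9 was the only one more than 2-fold lower, at 3.10 against 10.2 CPM, where 2.48% passed. Tnfsf11 is the leading gene of the first cluster although it was left out of the clustering, so this again describes the cluster. After thinning, 54.9% of the Tnfsf11-led cells (52.3% to 57.4%) and 34.0% of the Tox2-led cells (31.0% to 37.1%) held a UMI, at median depths of 2720 and 4421 UMIs before thinning. The lowest thymic share was that of C3-like cells, 2.78% (0.908% to 6.36%), and no thymic class known to lack the gene was at hand as a background. Over the whole thymus 49.9% of cells held a UMI without thinning, 676 cells held 3 or more and the highest count was 15.

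At the finer resolution of 0.8 the S1pr1/Cd200 cluster divided, in the thymus, into 767 cells led by S1pr1 and Ccr7, with 171 CPM of Tnfsf11 (154 to 188), and 251 cells led by hemoglobin genes and Cd200, with 22.2 CPM (13.6 to 34.3). Tnfrsf9, the gene of the costimulatory receptor 4-1BB, took the opposite order, with 31.4 CPM (24.7 to 39.5) in the first and 162 CPM (137 to 191) in the second. Fasl was read 1 time in the first and 15 times in the second. The second is the smaller cluster and carries the hemoglobin transcripts, whose part in these values was not tested.

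C6-like thymic cells, which carry Il17a, had less Tnfsf11 than the immature cells. Their 33 UMIs came from few cells, since after thinning 4.82% of the 166 cells held one (2.10% to 9.28%) and 13.3% did without thinning. The interval of this share overlapped that of thymic C3-like cells. With every cell thinned the level was 36.1 CPM, and 48.6 CPM without the cells of the highest doublet scores.

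In the liver Tnfsf11 was scarce, with 230 UMIs in 8075 cells. C6-like cells had the highest hepatic level, 29.5 CPM (23.2 to 37.1). The S1pr1/Cd200 cluster, at 14.1 CPM from 3 UMIs, was not separated from them, and cycling cells had 11.3 CPM from 4 UMIs. The other large classes had 11.1 CPM (8.96 to 13.7) in C4-like and 5.29 CPM (3.19 to 8.27) in C3-like cells, whereas C5-like cells had 4 UMIs in all, 0.503 CPM (0.137 to 1.29). Only 5 hepatic cells were C1-like, too few for a level, and they held 34 of the 230 UMIs, or 14.8%.

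Tnf encodes the soluble and membrane-bound cytokine that gives the family its name. Its highest level was in the C8-like cells, 415 CPM (355 to 482), the class with the myeloid transcripts given above. Among the classes with the CD3 genes of T cells, it was highest in hepatic C6-like cells at 175 CPM (159 to 192), and then in thymic C6-like cells at 55.1 CPM (36.3 to 80.2). Hepatic C6-like cells exceeded C4-like cells, at 44.5 CPM (40.0 to 49.3), by 3.94-fold (3.42 to 4.54), and C5-like cells, at 31.1 CPM (27.3 to 35.2), by 5.64-fold (4.81 to 6.61). C6-like cells were 9.82% of the hepatic cells and held 32.3% of the hepatic Tnf UMIs.

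In the thymus Tnf outside the C6-like cells was near the limit of detection. The levels were 2.10 CPM in C1-like, 2.76 CPM in the S1pr1/Cd200, 1.69 CPM in C3-like and 2.95 CPM in cycling cells. The thymic library had 78 Tnf UMIs in all, 27 of them in C6-like cells and 11 in 3 C8-like cells. Within hepatic C6-like cells the transcript was uneven, since 32.3% of the cells held a UMI without thinning and 18.9% after it (16.3% to 21.8%), with up to 14 UMIs in a cell. The 7 myeloid genes summed to 330 CPM in hepatic and 266 CPM in thymic C6-like cells, against 114 to 203 CPM in the hepatic classes other than C6-like and C8-like. Cst3 gave 306 and 259 CPM of the C6-like sums. Lyz2, the leading gene of the C8-like cells, had 13.2 CPM in hepatic C6-like cells, against 16.0 CPM in C4-like and 20.5 CPM in C5-like cells, and no UMI in thymic C6-like cells. In hepatic C6-like cells C1qa had 4.79 CPM, against 3.72 CPM in C4-like and 4.28 CPM in C5-like cells. C1qb had 2.00 CPM there, against 4.83 and 4.53 CPM, and Csf1r 1.20 CPM, against 0.372 and 0.881 CPM. The part of myeloid transcripts in the Tnf level of C6-like cells was not tested.

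Fasl and Tnfsf10 encode FAS ligand and TRAIL, the ligands of the family that are known for killing target cells. Fasl was nearly equal in the 3 hepatic effector classes, at 123 CPM (115 to 131) in C5-like, 117 CPM (109 to 125) in C4-like and 107 CPM (86.1 to 132) in C7-like cells, and their ratios to one another as neighbours in this order had intervals that included 1. It was lower in hepatic C3-like cells, 54.9 CPM (47.5 to 63.1), and in hepatic C6-like cells, 23.6 CPM (17.9 to 30.4). In the thymus C3-like cells had 35.4 CPM (21.9 to 54.1), C1-like cells had 1.05 CPM (0.479 to 1.99), and C6-like cells had no UMI.

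Tnfsf10 separated the hepatic effector classes more than Fasl did. It was highest in C5-like cells, 66.8 CPM (61.3 to 72.8), which exceeded C4-like cells, 34.1 CPM (30.2 to 38.3), by 1.96-fold (1.69 to 2.28) and C7-like cells, 38.1 CPM (26.0 to 53.7), by 1.76-fold (1.23 to 2.59). The interferon-response cluster had 57.1 CPM (29.5 to 99.8) from 12 UMIs and was not separated from the C5-like cells. Hepatic C3-like cells had 15.0 CPM and C6-like cells 7.18 CPM. Of the 3 coreceptor genes listed as markers of αβ T cells, Cd8a was highest in C5-like cells, at 403 CPM against 9.40 to 299.9 CPM in the other hepatic classes, whereas Cd8b1 had 1.76 CPM there against 49.0 CPM in C3-like cells, and Cd4 had no UMI. In the thymus no class exceeded 14.3 CPM, the level of the C6-like cells, from 7 UMIs.

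The C6-like cells stood apart from the hepatic effector classes in most of the genes. Against C6-like cells, C5-like cells had more than 2-fold more Tnfsf10, Fasl, Cd27, Tnfrsf9 and Tnfrsf18, 5 of 9 genes tested where 8.33% of all genes passed, and more than 2-fold less Tnf and Tnfsf11, where 7.76% passed. The ratios of the 5 higher genes ran from 3.44 for Tnfrsf18 (2.88 to 4.15) to 9.30 for Tnfsf10 (5.83 to 15.8). Tnf was 5.64-fold lower (4.81 to 6.61), and Tnfsf11, with 4 UMIs in C5-like cells, 58.7-fold lower (22.0 to 221). C7-like cells, which carry Klra7, had more than 2-fold less Cd40lg, Cd27, Tnfrsf9 and Tnfrsf18 than C5-like cells, 4 of 8 genes tested where 6.57% passed, and none was more than 2-fold higher, where 3.19% passed. The folds were 3.40 for Tnfrsf9 (2.16 to 5.69), 2.34 for Cd27 (1.90 to 2.90) and 2.06 for Tnfrsf18 (1.63 to 2.64). For Cd40lg, with 2 UMIs in C7-like cells, it was 3.86 (1.03 to 32.5). Only the interval of Tnfrsf9 lay wholly past 2-fold.

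Cd27 encodes the receptor of CD70, whose gene had no UMI in the classes with at least 20 cells. It was read in every class. The immature C1-like cells had 617 CPM (600 to 634), the S1pr1/Cd200 cluster 492 CPM (468 to 516) in the thymus and 470 CPM (383 to 572) in the liver, and cycling thymic cells 344 CPM (326 to 362). Next came C5-like, C4-like and C3-like hepatic cells at 264, 261 and 245 CPM and C3-like thymic cells at 233 CPM. C7-like cells were lower, at 113 CPM (91.4 to 138). The C6-like cells, which carry Il17a, were the lowest in each tissue, with 52.3 CPM (43.7 to 62.0) in the liver and 69.4 CPM (48.1 to 97.0) in the thymus. The C8-like cells, at 55.8 CPM (35.4 to 83.7), were not separated from the hepatic C6-like cells. Hepatic C4-like cells had 4.99-fold more Cd27 than hepatic C6-like cells (4.18 to 6.00), and thymic C1-like cells 8.88-fold more than thymic C6-like cells (6.35 to 12.8). After thinning, 59.3% of C1-like cells held a Cd27 UMI and 5.55% of hepatic C6-like cells did.

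Tox2-led cells had slightly more Cd27, 653 CPM (629 to 677), than Tnfsf11-led cells, 579 CPM (556 to 603), whereas Tnfsf11 differed 2.07-fold in the other direction. Cd27 was 1.25-fold higher in C1-like cells than in the thymic S1pr1/Cd200 cluster (1.19 to 1.33). Of 5 genes with at least 50 UMIs in C1-like and S1pr1/Cd200 thymic cells together, only Tnfsf11 was more than 2-fold higher in C1-like cells, where 3.52% of all genes passed, and only Tnfrsf9 was more than 2-fold lower, where 3.78% passed.

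**Figure D3:**
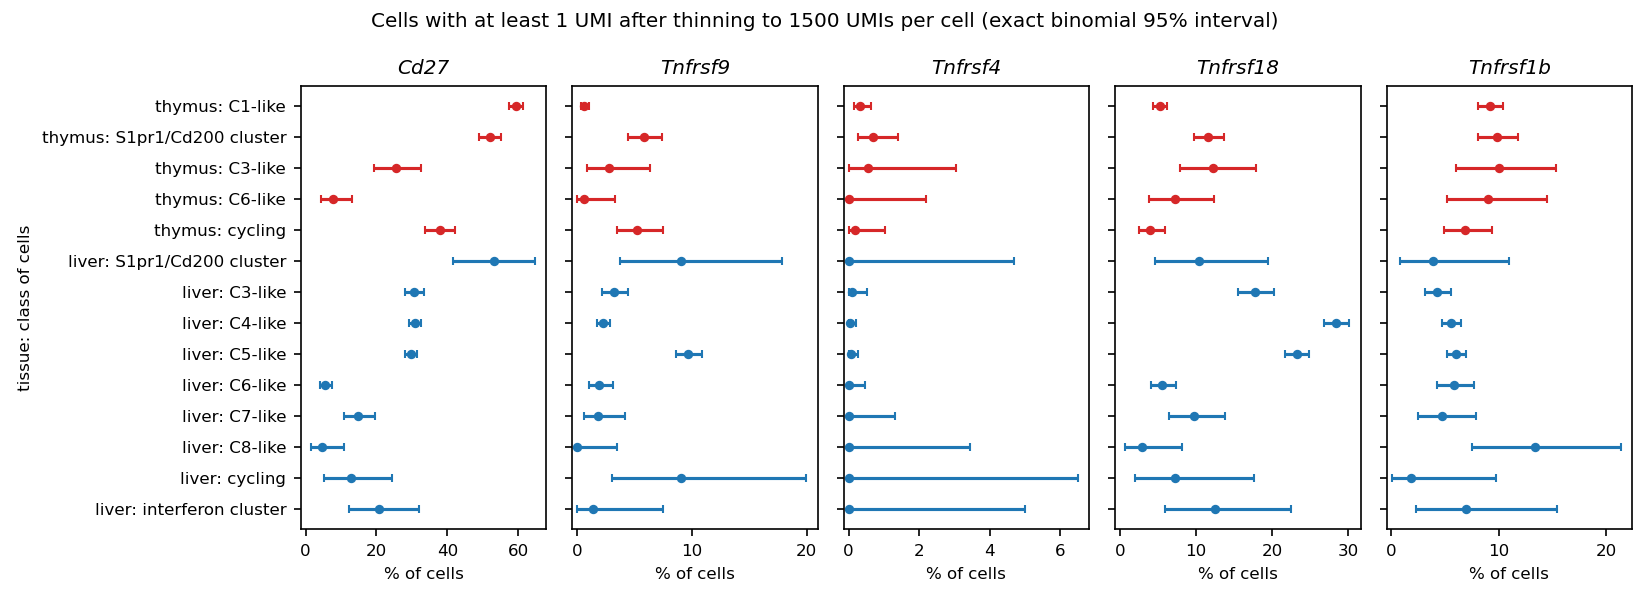
Percentage of cells with at least 1 UMI of each receptor gene after thinning every cell to 1500 UMIs, by class, thymus in red and liver in blue, with exact binomial 95% intervals as bars. Cd27 falls from 59.3% in thymic C1-like to 5.55% in hepatic C6-like cells, Tnfrsf18 is highest in hepatic C4-like cells (28.4%), and Tnfrsf1b stays between 1.82% and 13.3%.

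Tnfrsf9 encodes 4-1BB, which appears on T cells after activation. In the thymus it had 6.75 CPM (5.13 to 8.73) in C1-like cells and 67.7 CPM (59.0 to 77.2) in the S1pr1/Cd200 cluster, a 10.0-fold difference (7.47 to 13.6). That cluster held 43.1% of the thymic UMIs of the gene from 23.5% of the cells. Cycling thymic cells, with a median depth of 7066 UMIs, held 41.5% from 12.3% of the cells. Thymic C3-like cells had 28.7 CPM. The 80 hepatic cells of the S1pr1/Cd200 cluster had 103 CPM (64.8 to 157). Among the other hepatic classes C5-like cells were highest with 76.9 CPM (70.9 to 83.3) and held 62.8% of the hepatic UMIs, compared with 34.8 CPM in C3-like, 22.6 CPM in C7-like, 17.1 CPM in C4-like and 9.58 CPM in C6-like cells. The C5-like level was 4.50 times that of C4-like cells (3.74 to 5.45). C5-like cells and the hepatic S1pr1/Cd200 and cycling cells, at 73.8 CPM (48.2 to 108), were not separated from each other as neighbours in the order. Which named class was highest changed with the clustering: it was the C7-like cells with 20 principal components, the interferon-response cluster with cells of at least 500 genes, and the C5-like cells with each library clustered alone. The hepatic cycling cells also held 655 CPM of 5 B cell genes, against at most 103 CPM in any other class, and their part in this level was not tested.

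Tnfrsf9 was also the most unevenly spread over cells of the receptor genes with over 100 UMIs in each library. The 1% of cells with the highest counts held 46.8% of its thymic and 27.9% of its hepatic UMIs, against 4.69% to 15.8% in either library for Cd27, Tnfrsf18 and Tnfrsf1b. In the C3-like hepatic cells, where a single cell had 14 UMIs, 16.7% of the 36 cells with a Crtam UMI after thinning also had one of Tnfrsf9 (6.37% to 32.8%), against 2.71% of the 1033 cells without (1.81% to 3.89%). In C5-like cells, with most of the hepatic Tnfrsf9, the intervals overlapped, 13.6% (6.43% to 24.3%) against 9.61% (8.53% to 10.8%). Crtam is an early activation gene. At resolution 0.8, 48 hepatic cells led by Ccl1, Crtam and Tnfrsf9 itself formed a cluster of their own, with 331 CPM of Tnfrsf9 (260 to 417) at a median depth of 4200 UMIs. At that resolution the hepatic C3-like cells numbered 1033 and had 22.0 CPM of Tnfrsf9 (17.3 to 27.6), against 34.8 CPM in 1069 cells at 0.6. C5-like cells had 74.6 CPM (68.7 to 80.9), against 76.9 CPM. The pair of Crtam and Tnfrsf9 was compared at resolution 0.6 alone.

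Tnfrsf18 and Tnfrsf4, the genes of GITR and OX40, lie side by side, and their levels were very different in range. Tnfrsf18 was highest in C4-like cells, 224 CPM (214 to 234), then in C5-like cells, 179 CPM (170 to 188), and in hepatic C3-like cells, 129 CPM (118 to 142), and each step exceeded counting error. Thymic C3-like cells had 103 CPM (78.7 to 132) and C7-like cells 86.8 CPM (68.0 to 109). In the thymus C1-like cells had 42.4 CPM (38.1 to 47.0) and the S1pr1/Cd200 cluster 84.2 CPM (74.5 to 94.7). Tnfrsf4 had 12 UMIs in 8075 hepatic cells and 50 in 4351 thymic cells, and its highest level was 3.20 CPM (1.70 to 5.47) in cycling thymic cells, so no order among classes could be detected at this depth. Over all cells Tnfrsf4 was 5.90-fold higher in the thymus (3.10 to 12.2), with 1 UMI each in 46 of the 48 thymic cells that held it.

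Tnfrsf1b encodes TNFR2, the receptor of membrane-bound TNF, and varied least in fold between classes among the 9 genes other than Tnfrsf4. Its levels lay between 25.1 CPM (20.2 to 30.8) in hepatic C3-like cells and 75.2 CPM (51.1 to 107) in C8-like cells. No neighbours in the order of its levels were separated by their intervals. All 5 thymic classes lay at 40.6 CPM or more, and the hepatic C3-like, C4-like, C6-like, C7-like and cycling cells at 35.5 CPM or less. C5-like cells had 43.1 CPM (38.6 to 47.9). The Tnfsf11-led immature cells had 1.57-fold more than the Tox2-led ones (1.32 to 1.87).

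C3-like and C6-like cells were found in both tissues and allowed the same class to be compared. In C3-like cells 8 of the 10 genes had at least 50 UMIs over both tissues. Of these, 1 was more than 2-fold higher in the liver, where 5.06% of 5710 genes passed that limit, 2 were more than 2-fold higher in the thymus, where 4.08% passed, and 5 lay within 2-fold. Tnf was higher in the liver, with 27.6 CPM from 99 UMIs against 1.69 CPM from 1 UMI, a ratio of 16.4 (2.87 to 653). Cd40lg was 4.98-fold higher in the thymus (2.91 to 8.47) and Tnfrsf1b 2.42-fold (1.60 to 3.60). Cd27 differed little, at 245 CPM in the liver and 233 CPM in the thymus, a ratio of 1.05 (0.880 to 1.27). Tnfsf11, with 19 and 16 UMIs below the minimum, had 5.29 CPM in the liver and 27.0 CPM in the thymus. After thinning, 6.67% of thymic C3-like cells (3.49% to 11.4%) and 1.40% of hepatic ones (0.787% to 2.30%) held a Cd40lg UMI. With thinned counts Tnf and Cd40lg fell under the minimum of 50 UMIs, and Fasl and Tnfrsf1b were the 2 genes past 2-fold. In the S1pr1/Cd200 cluster, which the tissues also shared, 1 of 5 genes tested was past 2-fold, Tnfsf11, with 14.1 CPM in the liver and 131 CPM in the thymus, where 6.29% of all genes passed in that direction, and none was more than 2-fold higher in the liver, where 5.79% passed. At resolution 0.8, 71 hepatic cells lay in the part of this cluster led by hemoglobin genes and Cd200. They had 15.2 CPM of Tnfsf11 (3.14 to 44.5) from 3 UMIs, against 22.2 CPM (13.6 to 34.3) in its 251 thymic cells. The thymic cells led by S1pr1 and Ccr7 had 171 CPM (154 to 188). The part of this division in the difference between the tissues was not tested.

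In C6-like cells 6 genes had at least 50 UMIs. Tnf was 3.18-fold higher in the liver (2.15 to 4.88), and Fasl, with 59 hepatic UMIs and none in the thymus, was at least 3.84-fold higher, taken against 3 UMIs in the thymic cells. These 2 compare with 6.39% of 5136 genes past 2-fold in that direction. Tnfsf11 was 2.28-fold higher in the thymus (1.47 to 3.48), where 2.14% of genes passed, and Cd27, Tnfrsf18 and Tnfrsf1b lay within 2-fold. With the cells of the highest doublet scores removed, 1 of the 3, Tnf, was left past the limit, and with thinned cells also Tnf alone. One library per tissue was measured, and the thymic cells alone had been through bead depletion, so tissue, library and preparation cannot be told apart.

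**Figure D4:**
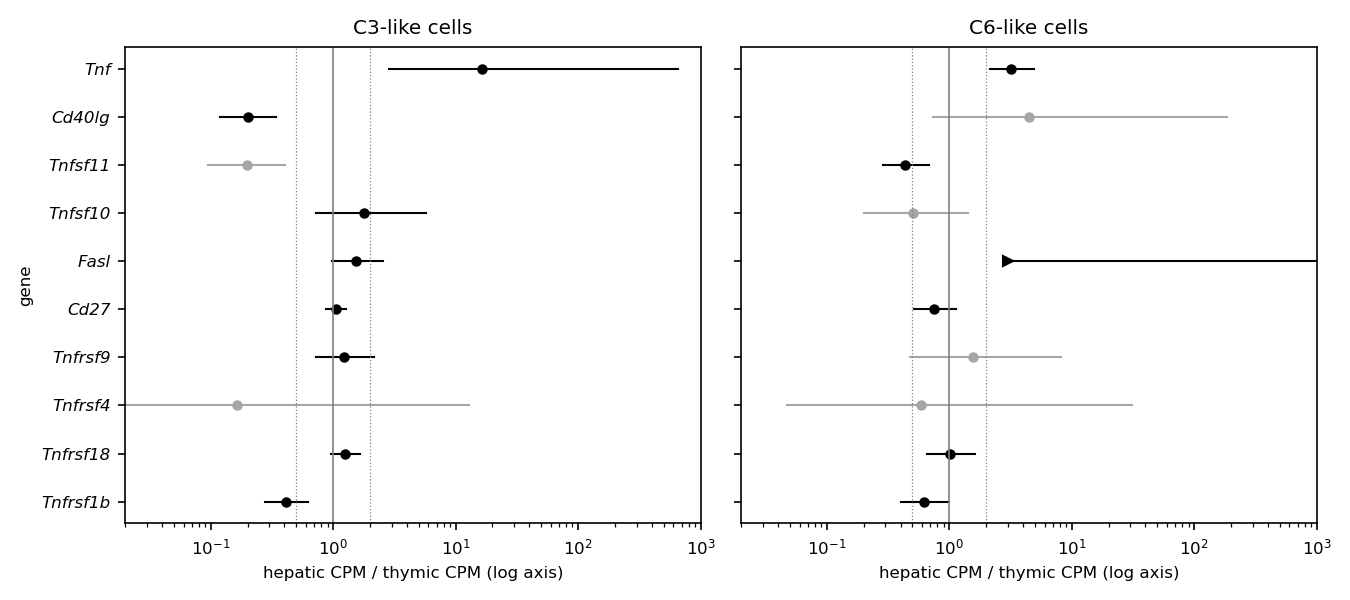
Ratio of the hepatic to the thymic level of each gene in C3-like (left) and C6-like (right) cells on a log axis, with exact 95% intervals. Black marks genes with at least 50 UMIs over both tissues and grey those with fewer, dotted lines mark 2-fold, and the triangle is the lower bound for Fasl, which had no thymic UMI. Tnf lies right of the upper dotted line in both classes, at 16.4 and 3.18, and Cd40lg left of the lower one in C3-like cells, at 0.201.

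Within a class, a link between the genes from cell to cell was seldom detectable at this depth. For 136 combinations of a pair of the 10 genes and a class, with at least 20 thinned cells holding each gene, the share of cells with the second gene was compared between cells with and without the first. The intervals overlapped in 134. Cells with Tnf held Cd27 more often among C5-like cells, 39.7% (31.1% to 48.8%) against 29.2% (27.5% to 30.9%), and less often among hepatic C3-like cells, 12.5% (4.19% to 26.8%) against 31.4% (28.6% to 34.3%). Outside the 10 genes, hepatic C6-like cells with Ifng, the gene of IFN-γ, held Fasl in 8.18% (3.81% to 15.0%) against 1.61% (0.807% to 2.86%). In the other 4 classes where this pair could be compared the intervals overlapped, with 15.1% against 17.5% in C4-like and 16.6% against 17.1% in C5-like cells. This pair and that of Crtam and Tnfrsf9 were the 2 of 31 such combinations whose intervals did not overlap. After thinning, 37.5% of C4-like and 47.2% of C1-like cells held at least 1 of the 5 ligands, and 53.7% and 65.4% at least 1 of the 5 receptors. Thymic C6-like cells had the lowest share with any of the 10, 30.1% (23.3% to 37.7%).

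The genes whose level moved most like each of the 10 were taken from 4371 genes with at least 50 CPM in a class, by Pearson correlation of log2(CPM + 10) over the 14 classes, which share 2 libraries. Fasl was closest to Klrc2 (0.993), Gimap4 and Klrd1, 2 of them genes of NK-cell lectin receptors. Tnfsf11 was closest to Emc6 (0.961), Rest and Ldlrad4. Tnf was closest to Cdkn1a (0.970) and Plekho2. Cd40lg followed Socs2 (0.842), Inpp4b and Pdcd1lg2, which encodes the checkpoint ligand PD-L2, and Tnfsf10 followed Gm19585 (0.931), Cd200r4 and Ppp3cc. Among the receptors, Cd27 was closest to Cxxc5 (0.935), Tcf12 and Ssbp2, Tnfrsf9 to Prkch (0.815), Syncrip and Ezr, Tnfrsf18 to Abcb1a (0.882), Ctsw and Ptpn22, Tnfrsf1b to Vamp3 (0.900), Strn3 and Fndc3a, and Tnfrsf4, whose level was at the limit of detection, to Ppp1r14b (0.940), Emc6 and Gosr2. Among the 10 themselves, Tnfsf11 and Tnfrsf4 were most alike (0.923), with Tnfrsf4 at the limit of detection, followed by Fasl and Tnfrsf18 (0.822). The most opposed were Fasl and Tnfsf11 (-0.839) and Tnf and Cd27 (-0.836).

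Of the other genes of the family, 13 ligands, 23 receptors and 22 signalling genes were listed. Few of the ligands and receptors were read at 50 CPM or more in a class, 3 of 13 and 3 of 23, compared with 15 of 22 signalling genes. Ltb, which encodes lymphotoxin β, was read in all classes and was highest in C6-like cells, 1035 CPM (995 to 1076) in the liver, and Tnfsf14, the gene of LIGHT, in C4-like cells, 75.8 CPM (69.9 to 82.0). Tnfsf9, the gene of the 4-1BB ligand, reached 114 CPM (83.8 to 152) in the C8-like cells and at most 14.3 CPM elsewhere. Cd70, Tnfsf15, Eda, Tnfrsf11b, Tnfrsf17, Edar and Eda2r had no UMI in the classes with at least 20 cells.

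Tnfrsf25, the gene of the receptor DR3, was nearly confined to C6-like cells, with 190 CPM (173 to 208) in the liver and 151 CPM in the thymus, against at most 28.7 CPM in any other class. Tnfrsf13b, which encodes TACI, was highest in C1-like cells, 53.1 CPM (48.3 to 58.2), and Tnfrsf1a, the gene of the first TNF receptor, in C8-like cells, 153 CPM (117 to 196). Receptor genes for Tnfsf11 and Cd40lg products were scarce. Tnfrsf11a, the gene of RANK, had 8 UMIs and Cd40 had 22 in the classes with at least 20 cells, and both were highest in the C8-like cells, at 7.28 CPM and 36.4 CPM. Fas was highest in C7-like cells, 44.0 CPM (31.0 to 60.7).

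Among the signalling genes Nfkbia, which encodes an inhibitor that NF-κB itself induces, was highest in the C8-like and hepatic C6-like cells, as was Tnf. Nfkbia had 3412 CPM (3236 to 3595) in C8-like and 3137 CPM in hepatic C6-like cells, and 520 to 1525 CPM elsewhere. Thymic C6-like cells, which came next in the level of Tnf, lay in this lower range of Nfkbia. Tnfaip3, which encodes A20, had 491 CPM (464 to 519) in hepatic C6-like cells. In the comparison of hepatic with thymic C6-like cells, Nfkbia was 5.63-fold (4.99 to 6.37), Traf1 3.04-fold (2.10 to 4.56) and Tnfaip3 2.13-fold (1.75 to 2.60) higher in the liver. Of the 24 listed genes tested there, 6 were more than 2-fold higher in the liver and 0 in the thymus, against the 6.39% and 2.14% of all genes. The 6 were Lta, Tnfrsf1a, Traf1, Tradd, Tnfaip3 and Nfkbia, and thymic Lta, Tnfrsf1a and Tradd had 3 UMIs each. In C3-like cells the listed genes went both ways, 5 of 30 more than 2-fold higher in the liver and 3 in the thymus, against the 5.06% and 4.08% of all genes, among the 3 Rel (2.87-fold, 2.23 to 3.69) and Nfkb1 (2.08-fold, 1.54 to 2.79), which encode NF-κB subunits. Traf4 was highest in C1-like cells, 122 CPM (115 to 130), Casp8 in the interferon-response cluster, 171 CPM (120 to 237), and Siva1, whose product binds CD27, in cycling thymic cells, 154 CPM (142 to 167).

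**Figure D5:**
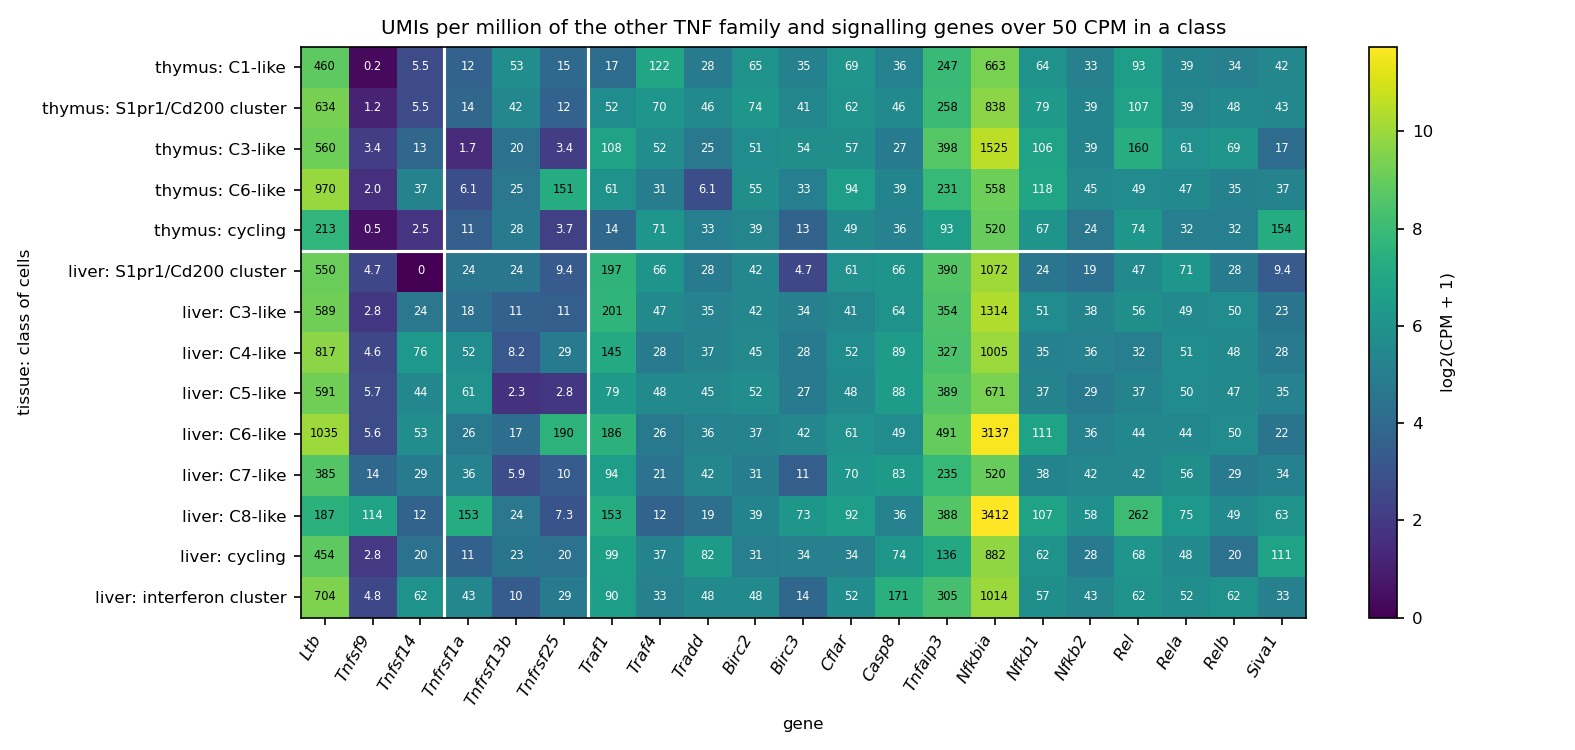
Levels of the 3 further ligands, 3 receptors and 15 signalling genes that reached 50 CPM in a class, separated by white vertical lines, in the same classes as the plot of the 10 genes. Each number is a level in CPM and the colour its log2(CPM + 1). Tnfrsf25 is bright in both C6-like rows (151 and 190), and Nfkbia in the hepatic C6-like (3137) and C8-like (3412) rows.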

How the data were processed

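Droplet-based 3′ sequencing was applied to hepatic and thymic γδ T cells, with 1 library each. The values the authors deposited are whole-number UMI counts, which had not been normalized. Per the labels, they used Cell Ranger and the mm10 build, and the annotation is not given in the sources used here. The kept cells held 24168037 hepatic and 17064752 thymic UMIs.

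Cells with 800 to 4000 genes and at most 6% mitochondrial UMIs from both libraries entered 1 clustering (Seurat 5.3.0, R 4.3.3, LogNormalize, 2000 variable genes less the listed genes, 30 principal components, resolution 0.6). Clusters were named by the marker list that scored best, the score being the mean log2 ratio of its genes to all other cells with 10 CPM added. A name needed a score of 0.5, a lead of 0.2 over the next list and 3 detected markers. These limits were set after the clusters had been seen. Names rebuilt in this way need not match the study's clusters cell by cell, and these filters leave a number of cells other than the one the study analysed. The 10 genes, the gene lists and the markers were chosen with earlier results of these data known.

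Levels, ratios and shares came from summed UMI counts with exact Poisson, conditional binomial and binomial 95% intervals (scipy 1.17.1, numpy 2.4.6, pandas 2.3.3, Python 3.11.15). For shares of cells, 1500 UMIs were drawn at random from every cell (seed 11), and 5 hepatic and 7 thymic cells with fewer were left out. A gene was counted as different past 2-fold, where the groups together held 50 UMIs or more, with counts under 3 set to 3 for this call alone. The ratios printed use the counts as they are, and a ratio to a count of 0 is a lower bound taken against 3 UMIs. On simulated counts for the C6-like comparison with 200 of 5136 genes changed 4-fold, 99.0% of the changed and 2.1% of the unchanged genes passed 2-fold. Those were Poisson counts of summed UMIs, so UMIs gathered in few cells and changes between 2-fold and 4-fold were not simulated. Scrublet in scanpy 1.11.5 marked 1 hepatic and 2 thymic cells, so this caller has not worked and doublets were kept. The genes named are the 10, those of the family lists with at least 50 CPM in a class, and the 3 most alike in pattern. Crtam, Ifng, Tnfrsf11a, Cd40, Fas and the list genes named for their fold between tissues or for having no UMI were named after their values were seen. Alternatives changed 1 choice at a time. Plots were drawn with matplotlib 3.10.9.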

Additional observations from a re-analysis of the deposited data

How the results depend on the processing

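Each alternative changed 1 choice. Under the 11 alternative clusterings and cell filters the class with the highest level was kept for 8 to 10 of the 10 genes, and it changed for Tnfrsf9 under 3 of them and for Tnfrsf4 and Tnfrsf1b under 2 each. Removing mitochondrial and ribosomal-protein genes from the total raised every level, to 163 CPM for Cd40lg in C4-like cells, 708 and 100.2 CPM for Tnfsf11 in thymic C1-like and C6-like cells, and 972 CPM for Cd27 in C1-like cells. Tnfsf11 in C1-like cells was 496 CPM as a mean over cells' own CPM, 476 CPM after thinning, 409 CPM with 3000 variable genes, 405 CPM with at least 500 genes per cell, 477 CPM with each library clustered alone and 435 CPM without the highest doublet scores. Cd40lg in C4-like cells was 124, 103 and 126 CPM under the last 3 of these, and Cd27 in C1-like cells 592 CPM both with 3000 variable genes and with at least 500 genes per cell. Clusters of a library taken alone were named by the joint class of the majority of their cells. Tnfsf11 in thymic C6-like cells was 36.1 CPM after thinning. The 3 genes past 2-fold between hepatic and thymic C6-like cells became 1 after thinning and 1 without the highest doublet scores. The share of C4-like cells with Cd40lg was 24.5% without thinning and 9.95% at 1000 UMIs, and that of thymic C6-like cells with Tnfsf11 13.3% without thinning. No paired analysis was possible because each tissue has 1 library, and no replicate could be left out. Depth limits Tnfrsf4 in every class and the thymic C3-like and C6-like cells, which number under 200 each.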
